A study of Mus musculus with 12 samples.

Results

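The 78 genes described here encode nuclear-encoded subunits of the 5 complexes of oxidative phosphorylation, followed in the livers of female C57BL/6 mice. Members were taken by gene symbol from the array's annotation: probe sets with a single symbol starting Ndufa, Ndufb, Ndufc, Ndufs or Ndufv and a digit, Uqcr, Cox and a digit of 4 to 8, or Atp5, and Sdha, Sdhb, Sdhc and Sdhd. That rule found 147 of the 22690 probe sets. They cover 32 genes of complex I (NADH dehydrogenase), 4 of complex II (succinate dehydrogenase), 8 of complex III (the cytochrome bc1 complex), 17 of complex IV (cytochrome c oxidase) and 17 of complex V (ATP synthase). Ndufa4 was counted with complex IV, where its protein sits, and Cox7a2l, a factor that joins complexes III and IV into supercomplexes, was kept with complex IV by its symbol. The rule used no measured value.

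For 3 weeks, mice were injected under the skin 2 times a week with sesame oil (100 µl) that carried 0.9 mg of testosterone, or with the oil alone. Livers were taken directly after treatment or after a period without injections, which the sample labels give as 12 weeks and the series' design text as 3 weeks. The 4 groups of 3 individual mice are called here testosterone at the end of treatment, vehicle at the end of treatment, testosterone after withdrawal and vehicle after withdrawal. No genetic change is named for any group, and the animals' age is not given in the sources used here.

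Oxidative phosphorylation is the last stage of respiration, carried out at the inner mitochondrial membrane. Complexes I and II feed electrons from NADH and succinate to ubiquinone, complex III passes them to cytochrome c, and complex IV hands them to oxygen. Complexes I, III and IV pump protons as they do so, and complex V uses the returning protons to make ATP. Each of these complexes except complex II also holds subunits encoded in mitochondrial DNA, which the symbol rule does not reach. In complex I the catalytic core subunits bind NADH and the iron-sulfur clusters, while the supernumerary subunits surround and stabilise the core. Hepatocytes are rich in mitochondria and depend on them for gluconeogenesis, the urea cycle and fatty acid oxidation.

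Each liver was hybridised to 1 array, and each value is a signal in arbitrary units, with the same trimmed mean on every array. Genes whose signal exceeded the median of the array in 3 or more of the 12 arrays were tested, which kept 73 of the 78 members and 7217 genes in all. Of the 73 members, 71 lay above the array's median on every array. The members' median signal was 1161, against 91.0 over all genes tested. Their median standard error for a difference between groups at the end of treatment was 0.082 on the log2 scale, against 0.15 over all genes. A member is called changed when limma's moderated test over all 7217 genes gave a Benjamini-Hochberg adjusted p under 0.05. With whole liver RNA, fewer cells of a type and less RNA per cell cannot be told apart.

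The 5 members that were not tested were mostly isoforms of complex IV typical of other tissues. Cox4i2 (the lung isoform) ranged from 0.335 to 6.15 over the 12 mice, and Cox6b2 (the testis isoform) from 0.580 to 8.01. Cox6a2 and Cox8b, the isoforms of heart and skeletal muscle, are described with the muscle markers. Cox7c, a subunit made in every tissue, was the exception, with 9.63 to 25.5 on its brighter probe set. The tissue isoforms of liver were bright: Cox6a1 lay between 2506 and 3331 and Cox7a2 between 2776 and 3759.

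Some features of the arrays moved with the groups or set single livers apart. The summed signal of 6 hepatocyte markers lay between 25649 and 31844 in all 12 livers. At the end of treatment 0 of the 6 were called (1 at an unadjusted p under 0.05 by limma). After withdrawal their sum was 27128, 30801 and 31844 in testosterone mice 1 to 3, against 28550.5, 26444 and 25649 in vehicle mice 1 to 3, so that testosterone mice 2 and 3 were the highest of the 12 and the groups overlapped. Of the 6, 1 was called higher in that comparison, Apoa1, the main protein of high-density lipoprotein, at 0.25, and 3 had an unadjusted p under 0.05. The summed signal of 12 Kupffer cell and macrophage markers was 2864 to 3534 in testosterone livers at the end of treatment and 4013 to 6313 in vehicle livers. After withdrawal it was 2388 to 2668 in testosterone livers and 1941 to 3666 in vehicle livers. Of these 12 markers (none at the signal floor throughout a group), 7 were called lower with testosterone at the end of treatment and 0 after withdrawal (0 also at an unadjusted p under 0.05 by limma). Skeletal muscle markers were high in 2 livers, with a summed signal of 1199 in testosterone withdrawal mouse 1 and 508 in vehicle withdrawal mouse 1, against 23.4 to 36.3 in the other 10. Exocrine pancreas markers summed to 429.5 and 1029 in testosterone withdrawal mice 1 and 2, against 29.9 to 83.8 in the other 10. Among 7 stellate and endothelial markers, 1 was called lower at the end of treatment and 0 after withdrawal (2 at an unadjusted p under 0.05). Of the brown fat list, Ucp1 and Cidea were too dim to test, Elovl3, also an androgen-responsive gene of liver, was higher with testosterone at both times (3.00 and 5.31, log2) and Cd36 lower (−0.86 and −1.30). Of the red cell markers only Alas2, the first enzyme of heme synthesis in red cells, was bright enough to test, and it was higher at both times (1.75 and 2.01). The actin ratio, the signal at the 3′ end of the transcript over that at the 5′ end and a measure of how much full-length RNA was labelled, was, at the end of treatment, 2.11 ± 0.0769 with testosterone and 1.52 ± 0.108 with vehicle (SD, n = 3 each; two-sided exact permutation p = 0.1, the smallest that 3 against 3 allows). After withdrawal it was 1.62 ± 0.179 with testosterone and 1.77 ± 0.154 with vehicle (exact permutation p = 0.2, n = 3 each). The same ratio of the other control transcripts was also apart at the end of treatment, at 18.8 ± 2.64 with testosterone and 6.06 ± 1.35 with vehicle for pyruvate carboxylase and 0.930 ± 0.0254 with testosterone and 0.763 ± 0.0316 with vehicle for Gapdh (SD, n = 3 each, exact permutation p = 0.1 for each). After withdrawal the ratios of both overlapped between the groups (exact permutation p = 0.4 and 0.3, n = 3 each).

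At the end of treatment, 12 of the 73 members rose with testosterone and 0 fell. The 12 are 16.4% of the members, where 9.42% of all genes tested were called higher. For the 0 members called lower, the share over all genes was 8.01%, and 23 members had an unadjusted p under 0.05 in either direction by limma. All 12 changes were small, from 1.18-fold for Cox7a2 to 1.34-fold for Ndufa3. They lay in complex I (6 of 32 members), complex IV (4 of 12) and complex V (2 of 17), with 0 of 4 in complex II and 0 of 8 in complex III. The median log2 change was 0.076 over the 73 members and 0.044 over all genes, and 52 of 73 members (71.2%) lay above 0, against 56.1% of all genes. By complex, the median log2 change was 0.081 in complex I, −0.11 in complex II, 0.064 in complex III, 0.23 in complex IV and 0.057 in complex V. In 25 members (34.2%) all 3 testosterone mice lay above all 3 vehicle mice, against 20.6% of all genes, and in 3 members (4.11%), Sdhd, Ndufs4 and Atp5g1, all lay below, against 15.1%. With the actin ratio as a term in the fit, 0 members were called (33 genes higher and 45 lower over the whole array), while the members' median was 0.10. The ratio and the treatment moved together in these 6 mice, and their parts cannot be told apart. The count was also moved, down or up, by single mice. Leaving out vehicle mouse 1 gave 5 calls (6.85%, against 6.50% of all genes). Leaving out testosterone mouse 3 gave 6 (8.22%, against 6.93%), mouse 2 gave 7 (9.59%, against 5.61%) and mouse 1 gave 8 (11.0%, against 5.74%). Without vehicle mouse 2 the count was 14 (19.2%, against 7.59% of all genes), and without vehicle mouse 3 also 14 (19.2%, against 8.40%). Without vehicle mouse 1 the median was 0.062 over the members and 0.062 over all genes, close to each other as the shares called were. With each array centred on its median, 5 members were called higher (6.85%, against 7.36% of all genes) and the members' median was 0.035, against 0.0032 over all genes. With quantile normalization 18 were called higher (24.7%, against 9.56% of all genes) and the median was 0.093. In the same comparison 7 of 12 Kupffer cell and macrophage markers fell, and their part in the members' values was not tested.

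**Figure D1:**
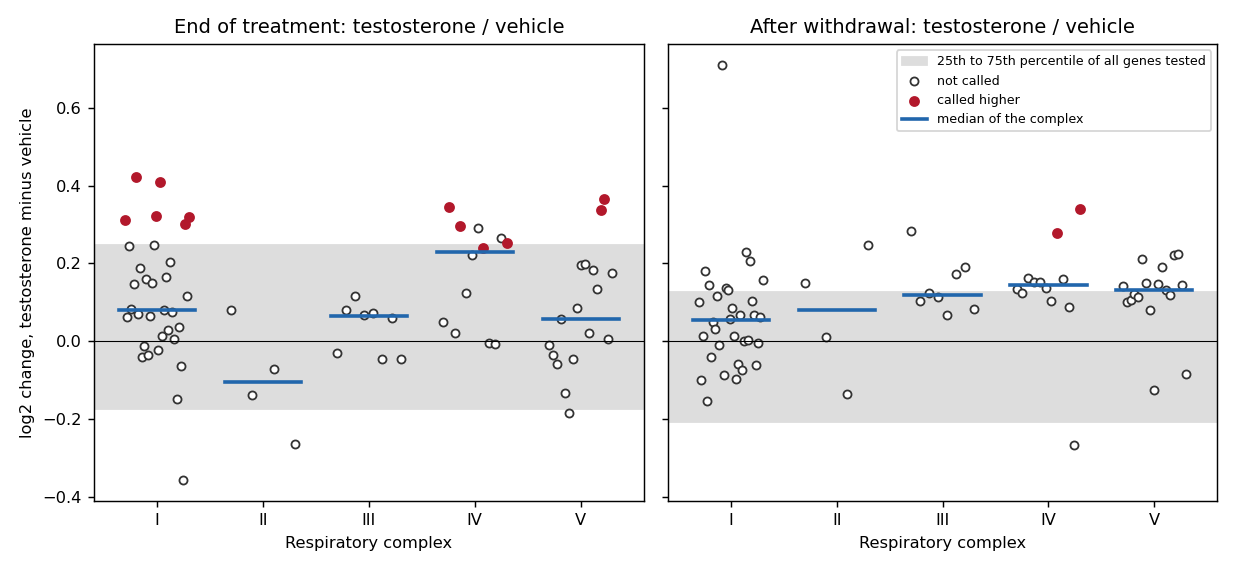
Log2 change of each tested member with testosterone relative to vehicle (vertical axis) by respiratory complex, at the end of treatment and after withdrawal; red points passed the test at adjusted p under 0.05, blue lines are complex medians and the grey band runs from the 25th to the 75th percentile of all 7217 genes. At the end of treatment the red points are 6 members of complex I, 4 of complex IV and 2 of complex V, and after withdrawal 2 members of complex IV.

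In complex I, 5 of the 26 supernumerary subunits tested rose and 1 of the 6 core subunits, so neither kind stood out. Ndufa3, a small subunit of the membrane arm, had signals of 1964, 2129.8 and 1814 in testosterone mice, against 1441, 1434 and 1521 in vehicle mice. Its log2 change was 0.42 ± 0.074 (SE, n = 3 each, adjusted p = 0.00146), and the lowest testosterone mouse stood clear of the highest vehicle mouse. Ndufb6, also of the membrane arm, read 956, 969 and 1039 with testosterone and 619, 855 and 774 with vehicle, a log2 change of 0.41 (adjusted p = 0.0219). Its groups did not overlap, and vehicle mouse 1 was the lowest of the 6. Ndufb3, another membrane-arm subunit, read 597, 584 and 578 with testosterone and 447, 418 and 552 with vehicle, a log2 change of 0.32 (adjusted p = 0.0350). Ndufa1, a short protein that complex I assembly requires and whose gene lies on the X chromosome, read 2112, 2079.9 and 2149.6 with testosterone and 1639.8, 1651 and 1821 with vehicle, a log2 change of 0.31 (adjusted p = 0.00921). In both genes every testosterone mouse lay above every vehicle mouse.

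The remaining pair belong to the arm that oxidises NADH. Ndufv1, the core subunit that binds NADH and the flavin cofactor, read 834, 871 and 862 with testosterone and 658, 688 and 741 with vehicle, a log2 change of 0.30 (adjusted p = 0.0227). It was the only one of 6 core subunits on the array to be called. Ndufv3, a small supernumerary subunit beside it, read 987, 984 and 959 with testosterone and 751, 734 and 867 with vehicle, a log2 change of 0.32 (adjusted p = 0.0282). The testosterone mice were close to each other in Ndufv1 and the groups did not overlap in either gene. Ndufc2 and Ndufa12, the uncalled members of complex I with the smallest p, had log2 changes of 0.20 (adjusted p = 0.0534) and 0.24 (adjusted p = 0.0700). Ndufs1, the largest subunit and a carrier of iron-sulfur clusters, was at 0.076 (95% interval −0.13 to 0.28), and Ndufb8, a membrane-arm subunit, at 0.080 (−0.081 to 0.24). The lowest member of all 73 was Ndufs8, a core iron-sulfur subunit, at −0.36 (adjusted p = 0.215).

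Complex IV had the highest share of members called, 4 of 12, and 10 of 12 lay above 0. Cox5a, a subunit on the matrix side of the enzyme, read 2246, 2293 and 2222 in testosterone mice, against 1617, 1858 and 1859 in vehicle mice. Its log2 change was 0.35 ± 0.080 (SE, n = 3 each, adjusted p = 0.00921). Cox6a1, the liver and general isoform of a regulatory subunit, read 3218, 3331 and 3311 with testosterone and 2506, 2544 and 3001 with vehicle, a log2 change of 0.30 (adjusted p = 0.0132). In both genes the highest vehicle mouse lay below the lowest testosterone mouse. Cox7a2, the liver isoform of another small subunit, read 3365, 3396 and 3621 with testosterone and 2776, 3087 and 2931 with vehicle, a log2 change of 0.24 (adjusted p = 0.0175). Ndufa4, first described as a complex I protein and later placed in complex IV, read 1892, 1937 and 1943 with testosterone and 1523, 1657 and 1668 with vehicle, a log2 change of 0.25 (adjusted p = 0.0211). The 3 testosterone mice were nearly level in Ndufa4, above vehicle mice that spread more widely. Cox4i1, the general isoform of the largest nuclear-encoded subunit, was at 0.049 (95% interval −0.087 to 0.19), and Cox5b, which binds zinc, at 0.020 (−0.14 to 0.18). Cox6c and Cox6b1 were the nearest uncalled members, at 0.22 (adjusted p = 0.0705) and 0.13 (adjusted p = 0.212).

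In complex V the members that rose were both accessory subunits of the membrane part. Atp5mpl, a very short protein of that part, read 926, 949 and 996 in testosterone mice, against 737, 748 and 742 in vehicle mice, with a log2 change of 0.37 (adjusted p = 0.00443). Atp5md, also called DAPIT, which helps ATP synthase dimers associate, read 2051, 1999 and 2179.7 with testosterone and 1572, 1679 and 1681 with vehicle, a log2 change of 0.34 (adjusted p = 0.0107). No vehicle mouse reached a testosterone mouse in either gene. The catalytic head was not called: the alpha subunit Atp5a1 was at −0.011 (95% interval −0.19 to 0.17), the beta subunit Atp5b at −0.035 (−0.19 to 0.12), and Atp5o, which ties the head to the stalk, at 0.0046 (−0.22 to 0.22). Atp5j, a coupling factor of the stalk, and Atp5k, the e subunit of the membrane part, were the nearest uncalled members, at 0.20 (adjusted p = 0.0594) and 0.18 (adjusted p = 0.118).

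On the brightest probe set of each gene, no member of complexes II or III was called at the end of treatment. Dimmer probe sets of Sdha and Uqcrc2 were called higher when every probe set was tested on its own, as given below. Sdhd, a membrane anchor of complex II, read 807, 794 and 855 in testosterone mice, against 979, 1000.1 and 972 in vehicle mice. Its groups did not overlap, with testosterone lower, and its log2 change was −0.27 (adjusted p = 0.0667); in a fit of these 6 arrays alone it was called lower (adjusted p = 0.0438). Its dimmer probe set went the other way, at 0.38 (adjusted p = 0.160), so no direction is given for the gene, and values of Sdhd given for other comparisons are those of its brighter probe set. Of the other complex II subunits, the flavoprotein Sdha was at 0.080 (95% interval −0.12 to 0.28), the iron-sulfur protein Sdhb at −0.14 (−0.31 to 0.036) and the anchor Sdhc at −0.072 (−0.28 to 0.13). In complex III, the core protein Uqcrc1 was at 0.067 (−0.19 to 0.32), the Rieske iron-sulfur protein Uqcrfs1 at −0.046 (−0.21 to 0.12), the ubiquinone-binding subunit Uqcrb at 0.11 (adjusted p = 0.243) and the small subunit Uqcr11 at 0.081 (adjusted p = 0.496). These intervals are narrow: 68 of the 73 members (93.2%) had a 95% interval wholly inside a 1.5-fold change either way, against 54.5% of all genes. On the probe set used for each gene, no member reached 1.5-fold, where 10.8% of all genes did. A dimmer probe set of Cox6c, given below, did pass 1.5-fold.

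**Figure D2:**
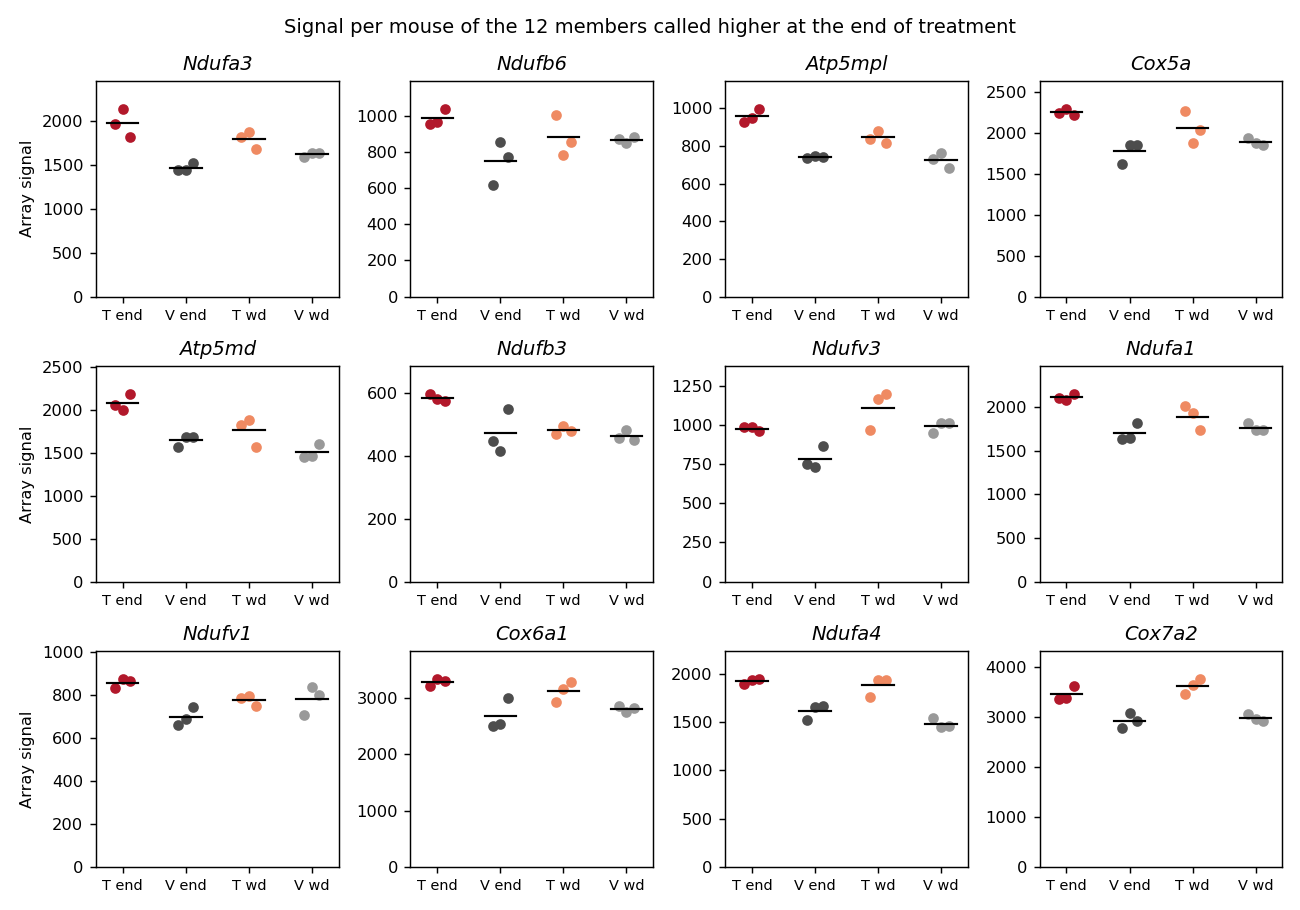
Signal (arbitrary units, linear axis) of the 12 members called higher at the end of treatment, 1 panel per gene and 1 point per mouse, for testosterone and vehicle at the end of treatment and testosterone and vehicle after withdrawal; short lines are group means. In each panel the 3 testosterone points at the end of treatment lie above the 3 vehicle points, as in Ndufa3, where they sit at 1964, 2129.8 and 1814, against 1441, 1434 and 1521.

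How steady the 12 calls were differed between genes. When each of the 6 mice was left out in turn, Ndufa3, Ndufa1, Cox5a, Atp5mpl and Atp5md were called in all 6 fits. Cox6a1 was called in 5, Cox7a2 in 4, Ndufb6 in 3, Ndufv1 and Ndufa4 in 2, and Ndufb3 and Ndufv3 in 1. Other probe sets of the same gene did not always give the same size. For Cox6a1 the probe sets gave log2 changes of 0.30 and 0.021, for Ndufa3 0.42 and 0.16, and for Ndufb6 0.41 and 0.18. The 3 probe sets of Ndufv1 gave 0.30, 0.29 and 0.081. When every probe set was tested on its own, 17 of 130 member probe sets were called higher (13.1%, against 9.31% of all 12108 probe sets tested) and 0 lower (against 10.1%), and no gene had calls in opposite directions. That fit added Cox6c at 0.71, Sdha at 0.35, Uqcrc2, a core protein of complex III, at 0.45 and Ndufb9 at 0.20, each through a probe set dimmer than the one used above.

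The promoters of the members were set beside these calls. RefSeq gave promoter sequences (build GRCm38.p6, 250 bases before to 50 after the annotated start) for 64 of the 78 genes, 69 sequences in all. They were searched on both strands for exact matches to 4 motifs bound by regulators of nuclear genes for mitochondria: GCGCATGCG for NRF1, CCGGAAG for GABPA, TCAAGGTCA for ERRA and AAGATGGCG for YY1. The NRF1 motif was found in 7 member promoters (10.1%), against 1.75% of 32851 promoters of the same length. GABPA's motif was in 17 (24.6%, against 8.86%), ERRA's in 2 (2.9%, against 0.423%) and YY1's in 6 (8.7%, against 1.4%). Any of the 4 motifs was in 26 member promoters (37.7%), against 11.7% of all promoters. Among the 12 members called at the end of treatment, 11 had a promoter sequence. Of these, 3 (27.3%) held any of the motifs, against 23 of 53 (43.4%) of the other members. The 3 were Ndufb6, Cox6a1 and Atp5md. To show the letters behind these counts, their promoters are given with those of Cox7a2 and Ndufa4, which were called at both times and hold none of the 4 motifs. Each runs 5′ to 3′ in the direction of the gene, in lower case with motif matches in capitals.
Cox6a1, chr5:115348909-115349208, minus strand: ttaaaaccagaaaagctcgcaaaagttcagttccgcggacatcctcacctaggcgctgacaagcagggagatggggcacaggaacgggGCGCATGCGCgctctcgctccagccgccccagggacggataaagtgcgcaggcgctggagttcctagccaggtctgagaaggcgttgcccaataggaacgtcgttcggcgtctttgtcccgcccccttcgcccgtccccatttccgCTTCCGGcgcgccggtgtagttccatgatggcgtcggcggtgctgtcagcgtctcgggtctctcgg
Ndufb6, chr4:40279372-40279671, minus strand: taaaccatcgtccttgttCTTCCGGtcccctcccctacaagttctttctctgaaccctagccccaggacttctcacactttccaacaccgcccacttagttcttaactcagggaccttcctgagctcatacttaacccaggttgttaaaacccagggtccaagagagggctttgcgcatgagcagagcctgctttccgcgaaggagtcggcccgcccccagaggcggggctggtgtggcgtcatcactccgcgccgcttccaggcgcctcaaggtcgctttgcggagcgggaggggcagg
Atp5md, chr19:47090598-47090897, minus strand: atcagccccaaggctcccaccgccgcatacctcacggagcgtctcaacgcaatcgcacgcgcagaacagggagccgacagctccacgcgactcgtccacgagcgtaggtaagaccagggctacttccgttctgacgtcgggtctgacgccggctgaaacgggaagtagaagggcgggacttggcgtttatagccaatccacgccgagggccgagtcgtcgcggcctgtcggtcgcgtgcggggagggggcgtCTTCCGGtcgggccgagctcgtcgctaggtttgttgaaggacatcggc
Cox7a2, chr9:79759804-79760103, minus strand: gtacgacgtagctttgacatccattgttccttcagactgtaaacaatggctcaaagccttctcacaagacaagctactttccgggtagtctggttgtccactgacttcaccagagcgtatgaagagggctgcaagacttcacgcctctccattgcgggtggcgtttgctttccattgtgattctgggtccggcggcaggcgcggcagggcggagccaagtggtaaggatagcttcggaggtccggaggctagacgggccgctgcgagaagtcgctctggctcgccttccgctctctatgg
Ndufa4, chr6:11907401-11907700, minus strand: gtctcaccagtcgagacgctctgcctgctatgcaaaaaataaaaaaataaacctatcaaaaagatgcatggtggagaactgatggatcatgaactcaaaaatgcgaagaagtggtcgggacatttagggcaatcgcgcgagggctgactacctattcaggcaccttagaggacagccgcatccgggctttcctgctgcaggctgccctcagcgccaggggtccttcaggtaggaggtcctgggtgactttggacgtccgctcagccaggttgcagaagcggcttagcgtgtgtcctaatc

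In Cox6a1 the capitals mark the NRF1 motif, matched on both strands so that the matches overlap, and the GABPA motif, and in Ndufb6 and Atp5md they mark the GABPA motif. A match is a run of letters and was not tested as a binding site, and its absence says only that these letters are not in that window.

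After withdrawal, 2 of 73 members were higher in testosterone mice than in vehicle mice, both of complex IV, and 0 were lower. The 2 are 2.74% of the members, the same share as over all genes (2.74%), and 3.26% of all genes were called lower. By limma, 17 members had an unadjusted p under 0.05 in either direction. Ndufa4 read 1762, 1939 and 1940.3 in testosterone mice, against 1545, 1454 and 1455 in vehicle mice, a log2 change of 0.34 ± 0.069 (SE, n = 3 each, adjusted p = 0.00770). Cox7a2 read 3472, 3652 and 3759 in testosterone mice, against 3074, 2969.6 and 2925 in vehicle mice, a log2 change of 0.28 ± 0.063 (SE, n = 3 each, adjusted p = 0.0153). The groups did not overlap in either gene. Both had also been called at the end of treatment, and 105 of all genes tested were called higher at both times. Ndufa4 was called in all 6 fits that left out a mouse and Cox7a2 in 2 of 6, while both probe sets of Cox7a2 were called when tested apart (0.28 and 0.42).

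The count depended on which livers were used. Leaving out testosterone mouse 1, the liver with the highest muscle marker signal, gave 5 calls (6.85%, against 3.80% of all genes), adding Uqcr10 at 0.44, the complex I subunit Ndufa13 at 0.32 and Cox5b at 0.25. Leaving out vehicle mouse 1, the other such liver, gave 3 (4.11%, against 2.77% of all genes), adding Sdhd at 0.34 on its brighter probe set. Leaving out mouse 2 or 3 of either group gave 1 call, Ndufa4, where 1.52% to 1.72% of all genes were called higher. Without both muscle-marker livers, a setting chosen after seeing the data, 6 members were called higher (8.22%, against 3.92% of all genes): Ndufa4 at 0.42, Uqcr10, a small subunit of complex III, at 0.42, Sdhd at 0.38 on its brighter probe set, Cox7a2 at 0.33, Atp5a1 at 0.28 and Cox5b at 0.24. With all mice the dimmer probe set of Sdhd lay the other way, at −0.24 (adjusted p = 0.490), so these calls give the gene no direction. Without both livers high in pancreas markers, a setting likewise chosen after seeing the data, the testosterone group holds 1 mouse, which the fit assumes to vary like the mice of the other groups. Ndufa4 alone was then called (0.39, adjusted p = 0.0402), where 1.55% of all genes were called higher, and a call that rests on 1 mouse has no replicate behind it. Testosterone withdrawal mouse 1 was also high in pancreas markers and had the highest actin ratio of its group (1.82, against 1.57 and 1.47 in mice 2 and 3). Leaving out livers therefore cannot single out muscle or pancreas RNA, and their part in the members' values was not tested.

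Below the threshold, most members lay on the same side after withdrawal. The median log2 change was 0.11 over the 73 members and −0.038 over all genes, and 58 members (79.5%) lay above 0, against 44.3% of all genes. With centring the members' median was 0.17 and with quantile normalization 0.068. In the same comparison the 6 hepatocyte markers had a median of 0.16, and their part in the members' values was not tested. All 3 testosterone mice lay above all 3 vehicle mice in 19 members (26.0%, against 11.2% of all genes) and below in 3 (4.11%, against 14.7%), namely Ndufa2, Ndufb8 and Ndufc1 of complex I. Complex medians were 0.054 in complex I, 0.080 in complex II, 0.12 in complex III, 0.14 in complex IV and 0.13 in complex V. All 8 members of complex III lay above 0, among them Uqcrh, the hinge protein, at 0.19 (adjusted p = 0.150), Uqcrfs1 at 0.17 (adjusted p = 0.223) and Uqcrc1 at 0.11 (adjusted p = 0.615). In complex V, Atp5mpl was at 0.22 (adjusted p = 0.0941) and Atp5md at 0.22 (adjusted p = 0.125), with Atp5a1 at 0.14 (95% interval −0.038 to 0.32), Atp5b at 0.10 (−0.052 to 0.26) and Atp5o at 0.14 (−0.076 to 0.36). Complex IV included Cox6b1 at 0.15 (adjusted p = 0.209), Cox5b at 0.16 (adjusted p = 0.221), Cox4i1 at 0.13 (adjusted p = 0.250) and Cox5a at 0.12 (adjusted p = 0.399). In complex I, Ndufs1 was at 0.23 (adjusted p = 0.186) and Ndufb8 at −0.058 (adjusted p = 0.697). The highest value of all was Ndufb1 at 0.71 (adjusted p = 0.154), a dim member with 34.2, 27.5 and 53.6 in testosterone mice, against 21.1, 21.2 and 25.8 in vehicle mice.

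**Figure D3:**
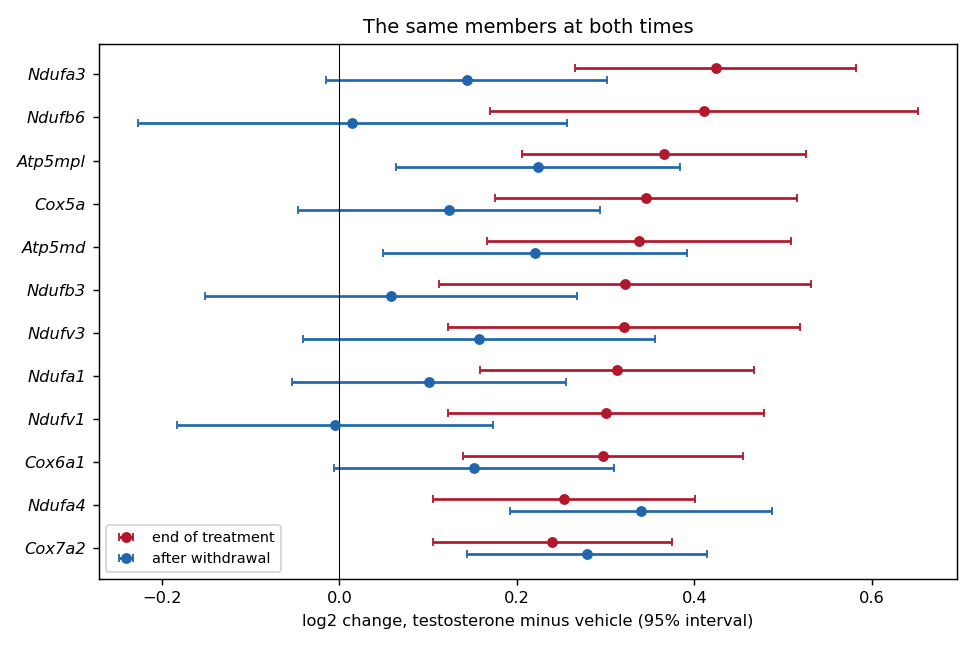
Log2 change with testosterone relative to vehicle, with its 95% interval, of the 12 members called at the end of treatment (red, end of treatment; blue, after withdrawal). All but Ndufv1 lie above 0 at both times, and the intervals of Ndufa4 (0.11 to 0.40 at the end of treatment, 0.19 to 0.49 after withdrawal) and Cox7a2 (0.11 to 0.37 and 0.14 to 0.41) lie above 0 at both.

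Of the 12 members called at the end of treatment, 11 were above 0 after withdrawal, with a median log2 change of 0.15 over the 12. The exception was Ndufv1, at −0.0048 (95% interval −0.18 to 0.17). Ndufa3 read 1813, 1873 and 1674 in testosterone mice after withdrawal, against 1590.2, 1626 and 1631 in vehicle mice, so that its groups still stood apart while its log2 change was 0.14 (adjusted p = 0.293). Cox5a read 2277, 1879 and 2033 in testosterone mice, against 1935, 1876 and 1851 in vehicle mice, and its groups overlapped. Over all 73 members, 52 lay above 0 at the end of treatment, 58 after withdrawal and 39 at both times. With most members above 0 at each time, many must be so at both. No test asked whether the same members kept their side.

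Whether the testosterone difference itself changed between the times was tested as an interaction, the difference after withdrawal minus that at the end of treatment. By limma, 0 members were called higher, against 0.79% of all genes, 0 were called lower, against 1.4%, and 9 had an unadjusted p under 0.05. The median of the members was −0.0029, against −0.066 over all genes. It was 0.090 with centring (0.027 over all genes) and −0.080 with quantile normalization (−0.032 over all genes), so its sign depended on the normalization. The smallest p values belonged to Sdhd, at 0.51 (adjusted p = 0.0576), and Atp5g1, which encodes the c subunit of the ATP synthase ring, at 0.40 (adjusted p = 0.0705). Sdhd read 863, 979.9 and 885 in testosterone mice after withdrawal, against 873, 771 and 664 in vehicle mice, and its dimmer probe set again went the other way (−0.62). Among complex I members, Ndufa2 was at −0.30 (adjusted p = 0.104), Ndufa3 at −0.28 (adjusted p = 0.141) and Ndufv1 at −0.31 (adjusted p = 0.152). In the other complexes, Uqcrfs1 was at 0.22 (adjusted p = 0.261), Uqcr10 at 0.31 (adjusted p = 0.273), Cox5a at −0.22 (adjusted p = 0.266), the testis isoform Cox8c at −0.53 (adjusted p = 0.260) and Atp5h, the d subunit of the stalk, at −0.32 (adjusted p = 0.175). For Ndufa4 the interaction was 0.087 (95% interval −0.12 to 0.30) and for Cox7a2 0.039 (−0.15 to 0.23). Without testosterone withdrawal mouse 1 the interaction was called higher for 3 members, Sdhd, Uqcr10 and Atp5g1 (4.11%, against 2.44% of all genes), and without vehicle withdrawal mouse 1 for Sdhd (1.37%, against 1.77% of all genes). Without both muscle-marker livers it was called for 2, Sdhd at 0.65 and Uqcr10 at 0.45 (2.74%, against 3.52% of all genes). For Sdhd these values too are those of the brighter probe set.

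Each mouse's median over the 73 members, as a log2 deviation from the mean of the 12 mice, shows which mice carry the shifts. At the end of treatment it was 0.011, 0.013 and 0.018 in testosterone mice 1 to 3, against −0.14, −0.050 and −0.049 in vehicle mice 1 to 3. The testosterone mice were nearly level with each other, and vehicle mouse 1 was the lowest of all 12. Over all genes the same medians were 0.0025, 0.030 and −0.0017 with testosterone and 0.0010, −0.056 and −0.031 with vehicle. After withdrawal the members' medians were 0.015, 0.12 and 0.074 in testosterone mice, against −0.014, −0.029 and −0.059 in vehicle mice. Testosterone mice 2 and 3 were the highest of the 12, and the vehicle mice were all below 0. The all-gene medians after withdrawal were 0.020, 0.0041 and −0.022 with testosterone and 0.014, 0.044 and 0.046 with vehicle, a different order from the members'. In complex IV alone the medians at the end of treatment were 0.028, 0.045 and 0.11 in testosterone mice, against −0.17, −0.082 and −0.085 in vehicle mice.

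**Figure D4:**
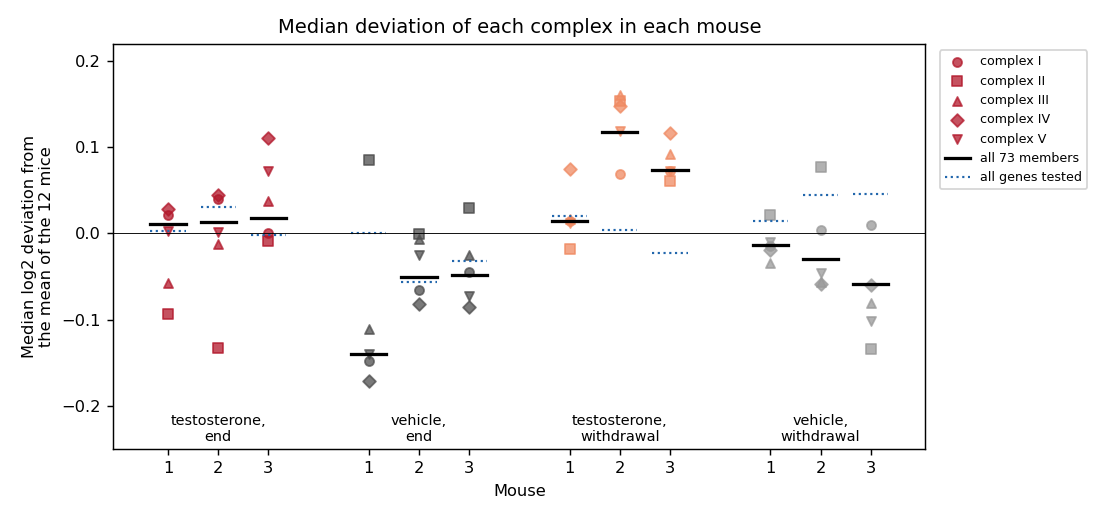
Median log2 deviation from the mean of the 12 mice (vertical axis) for each mouse and complex, with the black line for all 73 members and the dotted line for all genes tested. Vehicle mouse 1 at the end of treatment is the lowest point of the members' line (−0.14) and testosterone mouse 2 after withdrawal the highest (0.12).

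In vehicle mice, 7 members were higher after withdrawal than at the end of treatment (9.59%, against 11.0% of all genes) and 2 were lower (2.74%, against 6.83%), a comparison of times with no hormone given. With centring the split was 0 higher and 2 lower, against 7.75% and 9.60% of all genes. Of the 7, 5 belonged to complex I, which makes up 32 of the 73 members tested. Ndufa2, a small subunit of the peripheral arm, read 868, 895 and 889 after withdrawal, against 725, 741 and 700.5 at the end of treatment, a log2 change of 0.29 (adjusted p = 0.0115). The others of complex I were Ndufv3 at 0.34 (adjusted p = 0.0213), Ndufb9 at 0.31 (adjusted p = 0.0141), Ndufb7 at 0.28 (an adjusted p that lies just below the threshold of 0.05) and Ndufc1 at 0.23 (adjusted p = 0.0398). Uqcrc1 of complex III was at 0.36 (adjusted p = 0.0463) and Atp5h of complex V at 0.29 (adjusted p = 0.0441). On its brighter probe set Sdhd was lower after withdrawal, at 873, 771 and 664, against 979, 1000.1 and 972 at the end of treatment, a log2 change of −0.36 (adjusted p = 0.0174), while its dimmer probe set was at −0.0086. Cox7a2l was lower too, at −0.33 (adjusted p = 0.0473). The groups did not overlap in 16 members higher after withdrawal (21.9%, against 21.6% of all genes) and in 5 lower (6.85%, against 13.5%), Ndufs4, Ndufb1, Sdhd, Uqcrh and Cox7a2l. The members' median was 0.051, against 0.056 over all genes, and −0.027 with centring. These counts depended on which mouse was left out. Without vehicle withdrawal mouse 1, 5 were higher and 2 lower, without mouse 2, 0 and 0, and without mouse 3, 1 and 0. Without vehicle end-of-treatment mouse 1, 1 was higher and 1 lower, without mouse 2, 3 and 2, and without mouse 3, 5 and 1. Over all genes, the fits that left out 1 mouse called 4.85% to 10.9% higher and 3.24% to 7.22% lower. Of the 12 Kupffer cell and macrophage markers, 10 were called lower in the same comparison, and the part of those cells in the members' values was not tested. The pyruvate carboxylase ratio was also apart, at 9.03 to 17.0 after withdrawal and 4.57 to 7.20 at the end of treatment, while the actin ratio overlapped (1.60 to 1.89 and 1.44 to 1.64). With the actin ratio as a term, 1 member was called higher and 0 lower, against 1.93% and 1.29% of all genes.

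In testosterone mice, 3 members were higher after withdrawal than at the end of treatment (4.11%, against 5.57% of all genes) and 1 was lower (1.37%, against 5.31%). With centring the split was 1 higher and 0 lower, against 5.51% and 4.67% of all genes. With quantile normalization it was 2 and 2, against 5.50% and 5.25% of all genes. The actin ratio did not overlap between these groups, at 1.47 to 1.82 after withdrawal and 2.03 to 2.19 at the end of treatment, nor did that of Gapdh (0.787 to 0.879 and 0.908 to 0.958) or pyruvate carboxylase (9.33 to 15.3 and 17.3 to 21.9). With the actin ratio as a term all 4 calls were lost, against 0.707% of all genes called higher and 0.818% lower. The parts of RNA quality and time cannot be told apart here. Uqcrc1 read 761, 861 and 988 after withdrawal, against 691, 686 and 581 at the end of treatment, a log2 change of 0.41 (adjusted p = 0.0376). Ndufa7, a subunit of the peripheral arm of complex I, was at 0.26 (adjusted p = 0.0348) and Cox5b at 0.25 (adjusted p = 0.0398), though the mean of the probe sets of Cox5b gave −0.070. Uqcrc1 thus differed between the times by a like size in testosterone mice (0.41) and vehicle mice (0.36), which are separate animals. Ndufc2 was lower, at 1438, 1480.1 and 1392 after withdrawal, against 1675, 1664 and 1696 at the end of treatment, a log2 change of −0.22 (adjusted p = 0.0472). Without testosterone withdrawal mouse 1, 6 members were called higher (8.22%, against 5.61% of all genes), and without any other single mouse 0 were, against 3.44% to 4.21% of all genes. Leaving out any mouse lost the call on Ndufc2. All 3 mice after withdrawal lay above all 3 at the end of treatment in 15 members (20.5%, against 14.9% of all genes) and below them in 6 (8.22%, against 16.1%). Of the members called higher at the end of treatment, Atp5md and Ndufb3 lay lower after withdrawal without passing the test, at −0.24 (adjusted p = 0.0687) and −0.28 (adjusted p = 0.0855).

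The muscle isoforms Cox6a2 and Cox8b of complex IV were highest in the livers with muscle markers. Cox6a2 read 61.2 in testosterone withdrawal mouse 1 and 26.9 in vehicle withdrawal mouse 1. It read 11.6 to 14.2 in the other withdrawal mice and 6.40 to 10.4 in the mice at the end of treatment. Outside the livers with muscle signal its ranges at these times thus did not overlap, but the values were dim and the difference was not tested. Cox8b read 62.5 and 17.5 in the same pair of mice, against 0.482 to 8.38 in the other 10. These were the livers with the highest signal of Ckm, the muscle creatine kinase (129.6 and 59.1), Acta1, skeletal muscle actin (332 and 142), and Mb, myoglobin (262 and 99.7). Cox7a1, the third muscle isoform, read 43.9 in testosterone withdrawal mouse 1 and 13.4 to 22.7 in the other 11, and passed the filter on 5 arrays above the median. In vehicle withdrawal mouse 1 it read 22.7, level with 22.2 and 22.1 in the other mice of that group. It was called in no comparison, with a log2 change of 0.29 (adjusted p = 0.567) at the end of treatment and 0.10 (adjusted p = 0.885) after withdrawal. Both livers with muscle signal belong to the withdrawal time, 1 in each treatment, so they touch the time comparisons as well as the testosterone comparison after withdrawal.

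**Figure D5:**
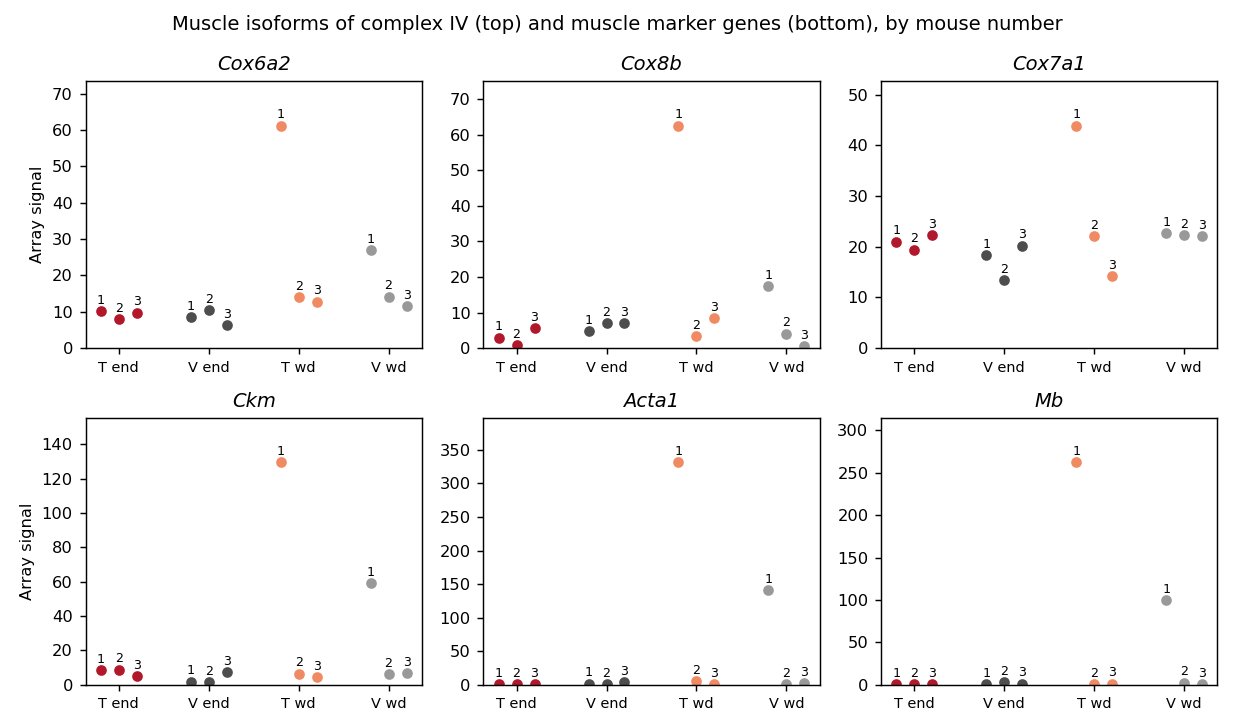
Signal by mouse (arbitrary units) of the muscle isoforms Cox6a2, Cox8b and Cox7a1 (top) and of the muscle markers Ckm, Acta1 and Mb (bottom), 1 point per mouse in the 4 groups. Testosterone withdrawal mouse 1 stands highest in all 6 panels, and vehicle withdrawal mouse 1 is next, clearly apart from the other mice in all but Cox7a1.

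Genes around the respiratory chain were read from lists outside the symbol rule. Their counts stand beside the shares of all genes called, which were 9.42% higher and 8.01% lower at the end of treatment, and 2.74% higher and 3.26% lower after withdrawal. A mixed list held other subunits, electron carriers, membrane transporters and related factors. Of its 21 genes tested at the end of treatment, 2 rose (9.52%) and 4 fell (19.0%) with testosterone. Gpd2, the mitochondrial glycerol-3-phosphate dehydrogenase that feeds electrons to ubiquinone, was at 0.83 (adjusted p = 0.0205). Sqor, which oxidises sulfide, fell by 0.67 on the log2 scale (adjusted p = 6.81e-05), and Prodh, which oxidises proline, was at −0.56 (adjusted p = 0.00870). Sqor read 704, 705 and 666 in testosterone mice, against 1091, 1072 and 1136 in vehicle mice. After withdrawal 0 of the 21 were higher and 2 were lower, Sqor at −0.34 (adjusted p = 0.0196) and Atpif1, the inhibitor of ATP synthase, at −0.50 (adjusted p = 0.0297).

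Of 34 assembly factors of the complexes, 2 rose (5.88%) and 3 fell (8.82%) at the end of treatment. Oxa1l, which inserts proteins into the inner membrane, was at −0.68 (adjusted p = 0.00534). Sdhaf2, which attaches the flavin to Sdha, was at −0.55 (adjusted p = 0.00976). Ecsit, a factor for complex I, was at 0.52 (adjusted p = 0.0170). After withdrawal 0 of 34 were called in either direction by limma (3 at an unadjusted p under 0.05), and the interaction was called for Sdhaf2 alone, at 0.82 (adjusted p = 0.0354). Sco2, which delivers copper to complex IV, was higher after withdrawal than at the end of treatment in testosterone mice, at 1.30 (adjusted p = 9.99e-05), and in vehicle mice, at 0.99 (adjusted p = 0.000897).

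Of 17 enzymes of the tricarboxylic acid cycle and pyruvate dehydrogenase, 2 rose at the end of treatment (11.8%) and 0 fell: Sucla2, a subunit of succinyl-CoA synthetase, at 0.42 (adjusted p = 0.0126), and Pdhb, a subunit of pyruvate dehydrogenase, at 0.41 (adjusted p = 0.00734). After withdrawal 1 was lower, the isocitrate dehydrogenase Idh2, at −0.42 (adjusted p = 0.0454). Among 19 regulators of mitochondrial biogenesis, 3 rose (15.8%) and 0 fell at the end of treatment: the mitochondrial RNA polymerase Polrmt at 0.61 (adjusted p = 0.0109), the mitochondrial transcription factor Tfam at 0.44 (adjusted p = 0.0417) and Yy1 at 0.35 (adjusted p = 0.0421). After withdrawal 0 of 19 were called either way by limma (1 at an unadjusted p under 0.05). Between the times, 8 of the 19 were higher and 1 was lower in vehicle mice (42.1% and 5.26%, against 11.0% and 6.83% of all genes). In testosterone mice 0 were higher and 1 was lower (0% and 5.26%, against 5.57% and 5.31%). Ppargc1b, a coactivator of mitochondrial genes, was the one lower in both, at −1.18 (adjusted p = 0.00911) in testosterone mice and −0.96 (adjusted p = 0.0191) in vehicle mice. Of 10 mitochondrial translation factors, 0 were higher and 1 lower with testosterone at the end of treatment, the elongation factor Tufm at −0.83 (adjusted p = 0.0233). Of 23 import and folding genes 1 was higher and 0 lower, Timm9, a carrier of imported proteins, at 0.90 (adjusted p = 0.0111). Of 7 antioxidant and uncoupling genes 1 was higher, the mitochondrial superoxide dismutase Sod2 at 0.34 (adjusted p = 0.0156), and 1 lower, the thioredoxin Txn2 at −0.37 (adjusted p = 0.0274). After withdrawal limma called 0 genes on each of these last 3 lists, with 0 translation factors, 2 import genes and 2 antioxidant genes at an unadjusted p under 0.05.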

How the data were processed

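Total RNA (5 µg per liver) from 12 livers was labelled and hybridised to Affymetrix arrays, per the labels' protocols. The deposited values are MAS5 signal intensities on a linear scale, 1 column per array; GCOS and MAS5 are the programs named in the submitters' processing notes (versions not given in the sources used here). In the deposited intensities the 2% trimmed mean was 100.05 on every array, and array medians ran from 20.03 to 22.44. Of 22690 probe sets, 64 are controls, 20380 carry 1 gene symbol, 691 several and 1555 none.

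Signals were raised to a floor of 4.84 (the 25th percentile of all values) and taken to log2. Each of 12393 genes was represented by its brightest probe set (highest mean on the log2 scale), and genes above the array median on at least 3 of 12 arrays were kept (7217). The 4 group means were fitted in limma 3.58.1 (R 4.3.3; lmFit and eBayes with a variance trend), with Benjamini-Hochberg adjustment over all 7217 genes and calls at adjusted p under 0.05. The fit was tested on simulated data made from these arrays' means. Single values such as RNA quality ratios were compared by exact permutation tests in Python 3.11.15. Figures were drawn with matplotlib 3.10.9. The number of arrays, 3 a group, limits the precision.

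Groups came from the sample titles. The design text names individual mice as replicates. Within-group correlations of arrays were 0.979 to 0.989, and no 2 arrays held identical values. Replicate numbers are shared by the groups, but same-numbered mice did not deviate together (correlations −0.194 to 0.006), so no pairing was used.

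The members, gene lists, markers and motifs were chosen with earlier results of these data known. Named members were, per comparison and complex, up to 6 called by size of change and up to 2 uncalled with the smallest p, plus a set list of core subunits and tissue isoforms; from the other lists, up to 3 called genes each. Ndufs8, Uqcrc2, the members whose groups do not overlap, the values given for both times of the members called at the end, and the members called only without single livers were named after their values were seen. Of the 78 genes, 43 have several probe sets, and 41 member probe sets are of the kinds that can cross-hybridise with related genes. A further 7 probe sets that match the rule with several symbols were left out of the comparisons. All 78 genes matched RefSeq. Alternatives tried were centring, quantile normalization, other floors, filters and probe set choices, no variance trend, the groups compared alone, a replicate block, the actin ratio as a term, and leaving out mice.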

Additional observations from a re-analysis of the deposited data

Results flagged for a closer look

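Among the 7 probe sets that match the symbol rule but carry several symbols, and so entered no comparison, 2 differed between testosterone and vehicle mice at the end of treatment when every probe set was tested (limma, Benjamini-Hochberg over 12108 probe sets). The probe set of Ndufa11 and Ndufa11b, a supernumerary subunit of complex I and its near copy, read 366, 350.0 and 409 in testosterone mice, against 444, 601 and 424 in vehicle mice. Its log2 change was −0.37 (adjusted p = 0.0475), in the direction opposite to the 12 called members. The probe set of Ndufs6 and Ndufs6b, a zinc-binding subunit of complex I and its near copy, read 848, 845 and 878 in testosterone mice, against 691, 688 and 721 in vehicle mice, a log2 change of 0.29 (adjusted p = 0.0228). The groups did not overlap in either probe set. Which gene of each pair gives the signal cannot be told apart from these values. With 3 mice a group, no search for single outlying mice was made.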

How the results depend on the processing

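At the end of treatment, testosterone minus vehicle, the 12 members called higher became 5 with arrays centred, 18 with quantile normalization, 5 with no variance trend (6.85%, against 7.90% of all genes) and 0 with the actin ratio as a term, and 5 to 14 with 1 mouse left out; the 0 called lower became 1 with only the groups compared. After withdrawal, the 2 called higher became 1 with no variance trend, 6 without the muscle-marker livers and 1 to 5 with 1 mouse left out, and 1 without the pancreas-marker livers, a setting that leaves 1 testosterone mouse; the 0 called lower became 1 with no filter. For the interaction, the 0 called higher became 1 with centring, 2 without the muscle-marker livers and 0 to 3 with 1 mouse left out, and the 0 called lower became 1 with no filter. The fit of only the groups compared gives no separate value there.

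Between the times in vehicle mice, the 7 called higher became 0 with centring, 3 with no filter, 4 with the mean of probe sets, 3 with only the groups compared, 3 with no variance trend, 3 with the replicate block, 1 with the actin ratio and 0 to 5 with 1 mouse left out. The 2 called lower became 1 with quantile normalization, no filter, no cross-hybridising probe sets, only the groups compared, no variance trend or the replicate block, 0 with the mean of probe sets or the actin ratio, and 0 to 2 with 1 mouse left out. In testosterone mice, the 3 called higher became 1 with centring or no filter, 1 without the pancreas-marker livers (again 1 testosterone mouse after withdrawal), 0 with no variance trend, the replicate block or the actin ratio, 5 without the muscle-marker livers and 0 to 6 with 1 mouse left out. The 1 called lower became 2 with quantile normalization and 0 with centring, only the groups compared, no variance trend, the replicate block, the actin ratio, without the muscle-marker livers, and with any 1 mouse left out. Cox5b, higher at the later time in testosterone mice, reversed to −0.070 with the mean of its probe sets. The replicate block gave 11 members higher at the end of treatment and 2 after withdrawal; the numbers are shared only as labels. The settings without muscle- or pancreas-marker livers were chosen after seeing the data, and without the pancreas-marker livers the lone mouse is assumed to vary like the other groups. For these changes the cause was not tested.

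Over the named members' changes and the members' medians in all settings, 2385 values stayed the same, 197 lost the call, 41 gained it, 161 moved and 1 reversed. Staying the same means a call kept in its direction, or an uncalled value or median that moved by less than the SD between mice. Direction was checked only for called members, and the counts of calls are not included. With 3 mice a group, the smallest difference called among the members at the end of treatment was 0.24 on the log2 scale. Probe sets of 1 gene can differ in size, members near the threshold change sides with the fit, and the actin ratio differed between the groups at the end of treatment.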
